A study of Homo sapiens with 3 samples.

Results

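The BCL2 family and the cell cycle inhibitor CDKN1A were followed in THP-1 cells before and during inhibition of LSD1. The 9 genes were listed by protein accession, with earlier results of these data known: BCL2 (P10415), BCL2L1 (Q07817), MCL1 (Q07820), BCL2A1 (Q16548), BAX (Q07812), BAK1 (Q16611), BID (P55957), BCL2L11 (O43521) and CDKN1A (P38936). Each is 1 row among the 213543 features of the count table. THP-1 is a human acute monocytic leukemia cell line with the MLL-AF9 fusion, and GSK-LSD1 is a small molecule inhibitor of the histone demethylase LSD1, used here to induce monocytic differentiation. Total RNA, depleted of ribosomal RNA, was sequenced from untreated cells (0 h) and from cells treated with 0.2 µM GSK-LSD1 for 8 h or 24 h. Each time point was sequenced as 1 library of 1 cell line, so no difference between time points has a replicate check and no p-value is given. Intervals are 95% intervals for counting error only, exact unless named otherwise, and without molecular identifiers reads cannot be taken as independent molecules.

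BCL2 family proteins control the integrity of the outer mitochondrial membrane. Prosurvival members (BCL2, BCL-XL from BCL2L1, MCL1 and BFL-1 from BCL2A1) bind and restrain the pore-forming members BAX and BAK, while BH3-only members such as BID and BIM (from BCL2L11) relieve that restraint or activate BAX and BAK directly. Once pores form, cytochrome c leaves the mitochondria and caspases are activated. CDKN1A encodes p21, an inhibitor of cyclin-dependent kinases and a classic p53 target that also accompanies differentiation of myeloid cells. Myeloid leukemia cells are known to lean on BCL2 or MCL1 for survival.

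The counts summed to between 1310912 and 1475938 per library, so a feature without counts could hold up to 3 counts, or 1.95 to 2.34 CPM (counts scaled to the library size) after TMM scaling. This limit is one-sided, whereas the intervals below are two-sided. Of the monocytic markers, 5 of 8 had at least 10 counts in a library. At 0 h, 8 h and 24 h, LYZ had 655, 747 and 1773 counts and ITGAM 87, 120 and 339. SPI1 had 69, 87 and 102 counts, CEBPA 1848, 1716 and 1717, and PTPRC 617, 522 and 521. After scaling, CEBPA and PTPRC had log2 ratios of 0.01 and -0.13 at 24 h versus 0 h, and both intervals include no change. CD33 had no counts under its accession, CD68 had 0, 2 and 2, and CD14 had 0, 5 and 6. CD3E, HBB, EPCAM and ALB, markers of other cell types, had no counts in any library. CD86, the surface marker with which the study followed the treatment, had 1, 19 and 37 counts. The 8 h library stood apart in mitochondrial ribosomal RNA, with 9 counts of MT-RNR2 against 1661 at 0 h and 743 at 24 h. Whether this bears on the values at 8 h was not tested.

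Of the 9 genes, 6 had at least 10 counts in a library: BCL2, MCL1, BAX, BID, BCL2L11 and CDKN1A. The other 3 were at or near 0. BCL2L1 had no counts at any time, which allows up to 3 counts per library. BCL2A1 had 1, 0 and 2 counts, and BAK1 had 1, 0 and 0. No fold is given for these 3 genes, and a change was not detectable at this depth. Their counts cannot be read as absence of the transcript. GENCODE v44 annotates 13 protein-coding transcripts for BCL2L1, 3 for BCL2A1 and 2 for BAK1, the sources used here do not say how reads shared by several features were counted, and the files do not tell which other accessions, if any, belong to the same genes. Exons of the antisense gene ABALON cover 41.3% of the exon bases of BCL2L1, and exons of GGNBP1 on the other strand cover 4.11% of those of BAK1. Because features differ in length and in how many reads they share, counts do not rank different genes by transcript level. Counts are compared below between time points for 1 gene. Ratios and shares of genes within a library are read only for how they differ between libraries.

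BCL2, which encodes the prosurvival protein after which the family is named, lies on the reverse strand of chromosome 18 (63123346 to 63320128, GRCh38). The untreated library held 1351 BCL2 counts, the 8 h library 939 and the 24 h library 1103. After scaling, these are 879 CPM (interval 833 to 928), 733 (687 to 782) and 777 (731 to 824). The untreated library was highest and the 8 h library lowest, with the 24 h library close above it. The ratio at 8 h versus 0 h was 0.834-fold, a log2 ratio of -0.26 (-0.38 to -0.14). At 24 h versus 0 h it was 0.883-fold, a log2 ratio of -0.18 (-0.30 to -0.06). Both intervals lie below no change, whereas that of 24 h versus 8 h includes it (log2 ratio 0.08, -0.04 to 0.21). No exon of another annotated gene overlaps those of BCL2.

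MCL1 encodes a prosurvival protein with rapid turnover and lies on the reverse strand of chromosome 1 (150560895 to 150579738). The gene had 65, 90 and 82 counts, or 42.3, 70.3 and 57.7 CPM. Its order over time was the opposite of that of BCL2, with the untreated library lowest and the 8 h library highest. The ratio at 8 h versus 0 h was 1.66-fold (1.19 to 2.32), the largest among the 6 genes. At 24 h it was 1.36-fold, and its interval (0.973 to 1.92) includes no change, as does that of 24 h versus 8 h (0.821-fold, 0.601 to 1.12). A pair of features named by transcript identifiers, a retained-intron transcript and one without a defined coding sequence, belong to MCL1. Together they had 13, 8 and 12 counts, too few to set against the accession feature. Exons of other genes cover 5.27% of the MCL1 exon bases, on the same strand.

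**Figure D1:**
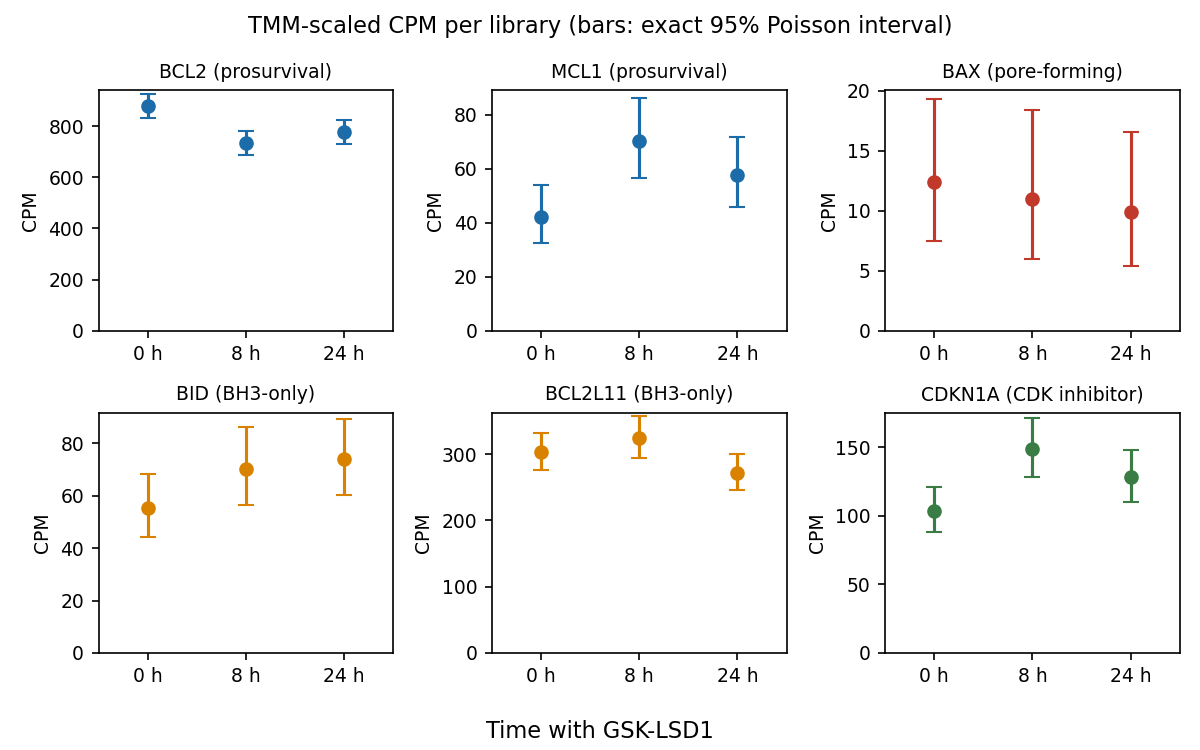
TMM-scaled CPM (y axis, each panel on its own scale from 0) of the 6 genes with at least 10 counts in a library, at 0 h, 8 h and 24 h of GSK-LSD1 (x axis). Each point is 1 library and each bar its exact 95% Poisson interval. BCL2 is highest at 0 h, while MCL1 and CDKN1A are highest at 8 h. For MCL1 and CDKN1A, the interval of the 24 h versus 8 h ratio includes no change.

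BAX, a pore-forming effector on the forward strand of chromosome 19 (48954815 to 48961798), had 19, 14 and 14 counts. Its log2 ratio was -0.18 at 8 h versus 0 h (-1.29 to 0.90) and -0.33 at 24 h versus 0 h (-1.44 to 0.75). These intervals include both no change and a fall to less than 0.5 of the untreated level, so the counts do not settle the direction. The 4 transcript features of BAX, all retained introns, had 3, 1 and 3 counts together.

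BID, a BH3-only protein that caspase 8 cleaves and so links death receptors to mitochondria, lies on the reverse strand of chromosome 22 (17734138 to 17774770). It had 85, 90 and 105 counts, or 55.3, 70.3 and 73.9 CPM. The untreated library was lowest and the treated libraries lay close together. The ratio was 1.27-fold at 8 h (0.934 to 1.73) and 1.34-fold at 24 h (0.994 to 1.80) versus 0 h. Both intervals reach no change, at 24 h by little. With the 4 transcript features of BID added, which had 3, 4 and 4 counts, the lower end at 24 h moved just past no change, to 0.0035 on the log2 scale.

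BCL2L11 encodes BIM, a BH3-only protein that binds all prosurvival members, and lies on the forward strand of chromosome 2 (111119378 to 111168444). The gene had 465, 415 and 386 counts, or 303, 324 and 272 CPM. The 8 h library was highest and the 24 h library lowest. Neither treated library differed from the untreated one beyond counting error, with ratios of 1.07-fold (0.936 to 1.22) and 0.898-fold (0.783 to 1.03). The 24 h library was lower than the 8 h library, at 0.839-fold (0.728 to 0.966). Exons of the long non-coding RNA gene MIR4435-2HG cover 10.8% of the BCL2L11 exon bases from the other strand, and whether counting used strand is not given in the sources used here.

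CDKN1A lies on the forward strand of chromosome 6 (36676460 to 36687337). It had 159, 190 and 182 counts, or 103, 148 and 128 CPM. As for MCL1, the untreated library was lowest and the 8 h library highest. The ratio was 1.43-fold at 8 h versus 0 h (1.16 to 1.78) and 1.24-fold at 24 h (0.995 to 1.54), and the latter interval just reaches no change. Between 8 h and 24 h the ratio was 0.864-fold (0.701 to 1.06). The non-coding gene DINOL, on the other strand, covers 4.87% of the CDKN1A exon bases. The 3 transcript features of CDKN1A had 4, 5 and 1 counts.

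**Figure D2:**
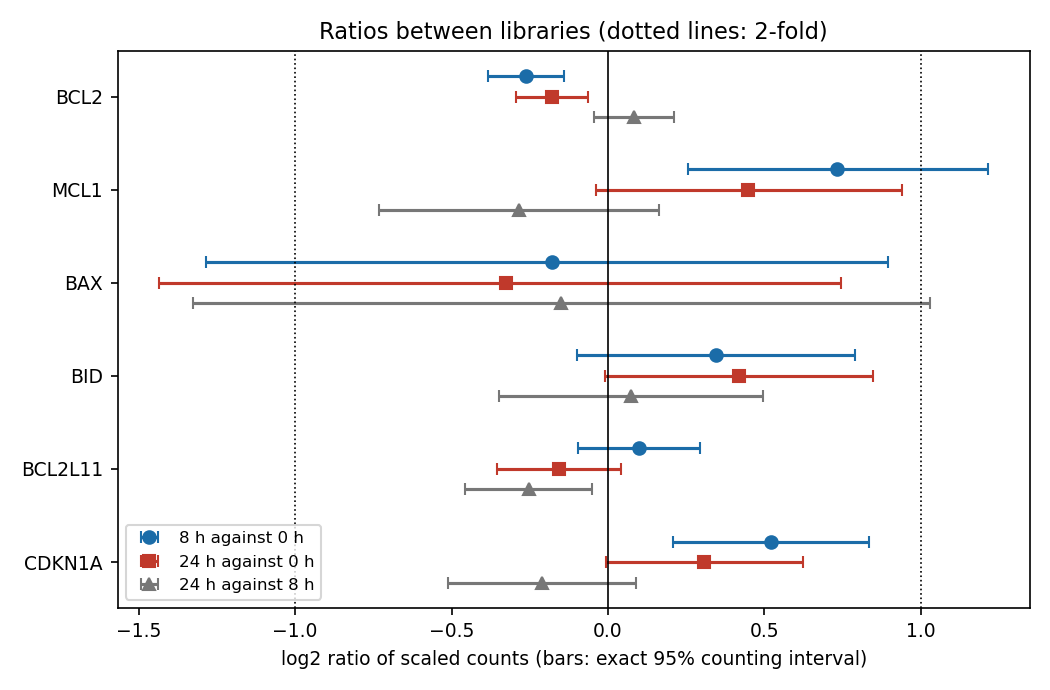
log2 ratios of scaled counts (x axis) of the same 6 genes (y axis) for 8 h versus 0 h (circles), 24 h versus 0 h (squares) and 24 h versus 8 h (triangles), with exact 95% counting intervals. No point reaches the dotted lines at 2-fold, and the intervals that leave out 0 are those of BCL2 at both times, MCL1 and CDKN1A at 8 h and BCL2L11 between 8 h and 24 h.

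None of the 6 genes was past a 2-fold difference between any pair of libraries. For comparison, 4.51% of the 9609 features that reached 10 counts in a library were over 2-fold higher in the 8 h than in the untreated library, and 6.02% over 2-fold lower, on the scale of log2 CPM with a prior count of 2. At 24 h versus 0 h these shares were 6.19% and 5.58%, and at 24 h versus 8 h they were 4.03% and 1.97%. Counting intervals lay wholly above no change for 2 of the 6 genes at 8 h (MCL1 and CDKN1A) and wholly below for 1 (BCL2), against 11.7% and 9.71% of all features tested. At 24 h versus 0 h the numbers were 0 above and 1 below (BCL2), against 13.0% and 12.6%. At 24 h versus 8 h they were 0 above and 1 below (BCL2L11), against 4.87% and 5.58%. Intervals narrow with depth, and 5 of the 6 genes had at least 50 counts in a library. Among the 4218 features with that many, 20.2% lay above and 14.6% below at 8 h versus 0 h. The corresponding shares were 19.9% and 21.2% for 24 h versus 0 h and 7.18% and 10.5% for 24 h versus 8 h. With 6 genes, these numbers do not set the genes apart from the other features. The median log2 fold change of the 6 genes was 0.22 at 8 h and 0.07 at 24 h versus 0 h, beside -0.01 and -0.01 over all features tested. With total counts in place of TMM the median at 24 h was -0.0061, and over the 5 genes with at least 50 counts it was 0.30, so it gives no direction at that time.

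The make-up of the family within a library does not depend on how libraries are scaled. Of the summed counts of the 8 BCL2 family features, the 4 prosurvival features held 71.3% in the untreated library, with a Wilson 95% interval of 69.3% to 73.3%. The share was 66.5% after 8 h (64.1% to 68.8%) and 70.2% after 24 h (67.9% to 72.3%). The 8 h library was the lowest, and its interval does not meet that of the untreated library. The 24 h and the untreated library overlapped. BCL2 made up most of this share, holding 68.0%, 60.7% and 65.2% of the counts at the 3 times. Without BCL2, the prosurvival share was 10.4% (8.24% to 13.0%), 14.8% (12.2% to 17.8%) and 14.3% (11.7% to 17.3%), so it was lowest at 0 h rather than at 8 h. The intervals of these shares overlap. MCL1 gave 65 of the 66 prosurvival counts left at 0 h, 90 of 90 at 8 h and 82 of 84 at 24 h. These are shares of counts, not of transcripts per length, and do not rank the genes by transcript level.

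BCL2 and MCL1, whose libraries stood in opposite order, were compared directly, a pair chosen after its values were seen. For both genes the interval of 24 h versus 8 h includes no change. MCL1 had the largest and BCL2 the smallest ratio of the measured genes at 8 h versus 0 h. The intervals of the pair make no allowance for that choice. There were 0.0481 MCL1 counts per BCL2 count at 0 h, 0.0958 at 8 h and 0.0743 at 24 h. The ratio was 1.99-fold higher at 8 h than at 0 h (exact conditional interval 1.42 to 2.82) and 1.54-fold higher at 24 h (1.09 to 2.20). The same comparison of BCL2 with BCL2L11, whose products bind each other, gave 2.91, 2.26 and 2.86 BCL2 counts per BCL2L11 count. It was 0.779-fold at 8 h versus 0 h (0.664 to 0.914) and 0.984-fold at 24 h (0.838 to 1.15). For MCL1 with BCL2L11, the ratio was 1.55-fold at 8 h (1.08 to 2.23) and 1.52-fold at 24 h (1.05 to 2.20). For BID with BCL2L11, it was 1.19-fold at 8 h (0.846 to 1.66) and 1.49-fold at 24 h (1.07 to 2.07).

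**Figure D3:**
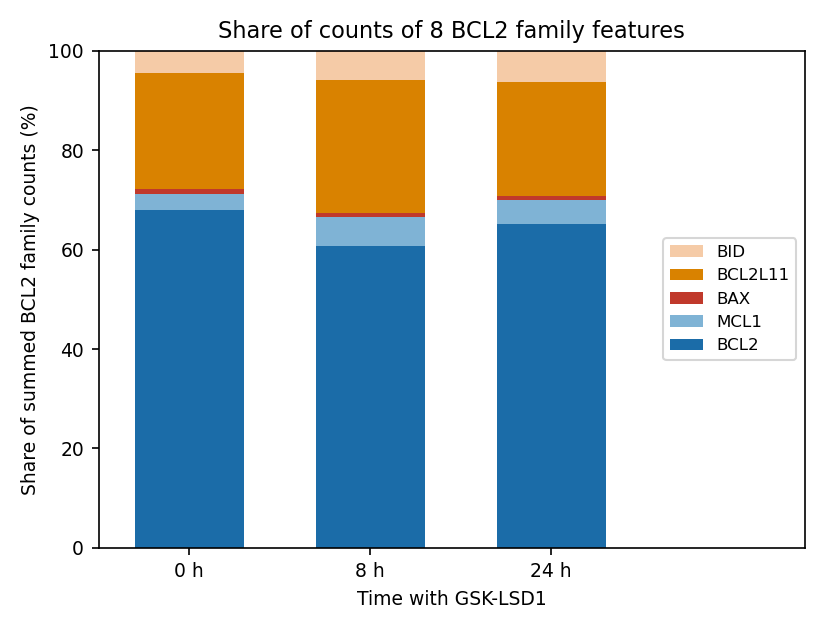
Share of the summed counts of the 8 BCL2 family features (y axis, percent) in the libraries of 0 h, 8 h and 24 h (x axis), stacked by gene. BCL2L1, BCL2A1 and BAK1 held 0 to 2 counts and are not drawn. The BCL2 segment shrinks from 68.0% at 0 h to 60.7% at 8 h and is 65.2% at 24 h.

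Around these genes, 70 further genes of the pathway were listed in 4 groups, paired with accessions from general knowledge since the files hold no gene names. Of these, 67 have a feature under the listed accession and 32 had at least 10 counts in a library. At 8 h versus 0 h, 1 of the 32 was past 2-fold higher and 2 past 2-fold lower, on the scale with a prior count of 2. At 24 h these numbers were 1 and 3, and between 8 h and 24 h they were 0 and 1. Over all features tested, the shares past 2-fold higher and lower were 4.51% and 6.02% at 8 h, 6.19% and 5.58% at 24 h, and 4.03% and 1.97% between 8 h and 24 h, so numbers this small do not set the listed genes apart. The medians were 0.03 at 8 h and 0.10 at 24 h versus 0 h.

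Of the 14 other BCL2 family genes, 7 were tested, and 0 of them was past 2-fold on the scale with a prior count of 2. Without a prior count, BOK was 2.16-fold higher at 8 h and at 24 h versus 0 h, on few counts. BCL2L2, which encodes the prosurvival protein BCL-W, had 169, 101 and 88 counts, with a log2 ratio of -0.48 at 8 h (-0.85 to -0.12) and -0.83 at 24 h (-1.22 to -0.45) versus 0 h. Exons of other genes, among them the read-through BCL2L2-PABPN1, cover 24.8% of its exon bases, so part of its reads could belong elsewhere. BMF, a BH3-only gene, had 36, 37 and 62 counts, with a log2 ratio of 0.90 at 24 h (0.28 to 1.53). Its interval at 8 h included no change (0.30, -0.40 to 1.01). BIK, another BH3-only gene, had 195, 204 and 204 counts, with a log2 ratio of 0.33 at 8 h (0.04 to 0.62) and 0.18 at 24 h (-0.11 to 0.47). PMAIP1, which encodes the MCL1 antagonist NOXA, had 37, 28 and 23 counts, and both of its intervals versus 0 h include no change. So do those of BNIP3 (25, 12 and 13 counts), BOK (5, 9 and 10) and BCL2L13 (14, 13 and 10). BBC3, which encodes the p53 target PUMA, had no counts under its accession.

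Downstream of the mitochondrial pore, 9 of 19 genes were tested. CYCS encodes cytochrome c, which the pore releases. It had 361, 154 and 159 counts, with a log2 ratio of -0.97 at 8 h (-1.25 to -0.69) and -1.07 at 24 h (-1.35 to -0.80), and was past 2-fold lower at 24 h. The genome holds processed pseudogenes of CYCS, so reads shared with them make its count uncertain. APAF1, the scaffold that cytochrome c assembles into the apoptosome, had 56, 41 and 76 counts. Its log2 ratio was -0.19 at 8 h (-0.80 to 0.42) and 0.55 at 24 h (0.04 to 1.08). The initiator caspase gene CASP10 had 49, 81 and 81 counts, with a log2 ratio of 0.99 at 8 h (0.46 to 1.53) and 0.84 at 24 h (0.31 to 1.38). BIRC3, an inhibitor of apoptosis and NF-κB target, had 1, 10 and 4 counts. It was the only listed gene past 2-fold higher on the scale with a prior count of 2 (log2 fold change 2.16 at 8 h). Without a prior count its log2 ratio was 3.58 at 8 h, with an interval of 0.77 to 9.02. At 24 h the interval included no change (-1.22 to 7.74). BIRC3 was also the gene past 2-fold lower between 8 h and 24 h. The caspase inhibitor XIAP had 219, 171 and 166 counts, CFLAR had 286, 240 and 309, FADD had 174, 140 and 188, and CASP8 had 11, 13 and 16. For these 4 genes the intervals at both times versus 0 h include no change. VDAC1, a channel of the outer mitochondrial membrane, had 748, 625 and 611 counts. Its log2 ratio was 0.00 at 8 h (-0.15 to 0.16) and -0.18 at 24 h (-0.34 to -0.02).

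In the p53 pathway, to which CDKN1A belongs as a target, 8 of 19 genes were tested. None of the 8 was past 2-fold. Over all features, 4.51% were past 2-fold higher and 6.02% lower at 8 h, and 6.19% and 5.58% at 24 h. The median log2 fold change was 0.42 at 8 h and 0.40 at 24 h versus 0 h. Over all features it was -0.01 at both times. Medians of the other BCL2 family, apoptosome and caspase, and G1 lists were 0.14, 0.00 and -0.10 at 8 h. At 24 h they were -0.32, 0.22 and -0.36. Intervals of 2 of the 8 lay wholly above no change at each time, against 11.7% and 13.0% of all features. With 8 genes, these numbers do not set the list apart. BTG2, an antiproliferative gene, had 66, 83 and 111 counts and a log2 ratio of 0.59 at 8 h (0.11 to 1.08) and 0.86 at 24 h (0.41 to 1.33). SESN1, a stress-induced regulator of mTORC1, had 54, 73 and 69 counts and a log2 ratio of 0.70 at 8 h (0.17 to 1.23). Its interval at 24 h included no change (0.47, -0.07 to 1.01). PPM1D, a phosphatase that damps p53 signaling, had 107, 114 and 129 counts. Its log2 ratio was 0.35 at 8 h (-0.04 to 0.75) and 0.38 at 24 h (0.00 to 0.77). The intervals of TIGAR, SESN2, RRM2B, ZMAT3 and MDM2 included no change at both times versus 0 h. MDM2, the ubiquitin ligase of p53, had 327, 297 and 350 counts.

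Among genes around the G1 phase, which include kinases that p21 inhibits and other inhibitors of such kinases, 8 of 18 were tested. For 3 there is no feature under the listed accession. CDK2, a main target of p21, had 60, 19 and 22 counts, with a log2 ratio of -1.40 at 8 h (-2.22 to -0.63) and -1.33 at 24 h (-2.11 to -0.61). CCNE2, a cyclin partner of CDK2, had 114, 62 and 49 counts, with log2 ratios of -0.62 (-1.09 to -0.16) and -1.10 (-1.62 to -0.61). CCND2, a D-type cyclin, had 19, 4 and 9 counts and a log2 ratio of -1.99 at 8 h (-4.00 to -0.40). Its interval at 24 h included no change (-0.96, -2.29 to 0.25). CDK6, a partner of D-type cyclins, had 4967, 3835 and 3224 counts, with log2 ratios of -0.11 (-0.17 to -0.05) and -0.51 (-0.57 to -0.45). CDK4, another such partner, had no counts in any library, which cannot be read as absence of the transcript. CCNA2 had 974, 828 and 780 counts and a log2 ratio of 0.03 at 8 h (-0.11 to 0.16) and -0.21 at 24 h (-0.34 to -0.07). The intervals of PCNA, E2F1 and CDKN2D included no change at both times. Exons of other genes on the other strand cover 37.1% of the exon bases of CCNE2 and 16.8% of those of CDK2. For CCND2, exons of other genes cover 13.8% of the exon bases, and those on the same strand cover 12.5%.

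**Figure D4:**
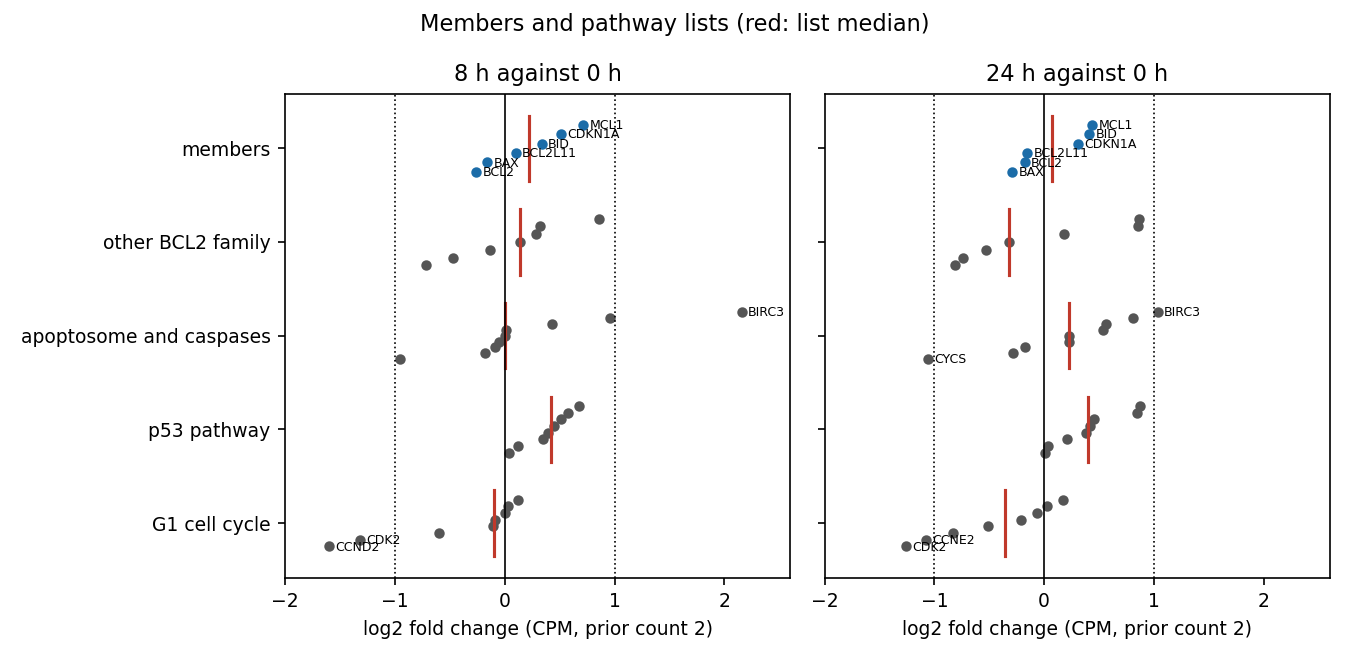
log2 fold changes of CPM with a prior count of 2 (x axis) at 8 h versus 0 h (left) and 24 h versus 0 h (right) for the 6 genes of the report ("members") and the tested genes of the 4 pathway lists (y axis). Each point is 1 gene, red bars are list medians and dotted lines mark 2-fold. Only BIRC3 lies past 2-fold higher, while CDK2, CCND2, CCNE2 and CYCS lie past it on the lower side at one time or both.

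The listed gene whose values were nearest to those of each main gene was taken as the one at the smallest Euclidean distance over the log2 fold changes at 8 h and 24 h versus 0 h, among 23 listed genes with at least 50 counts in a library. Both fold changes share the untreated library, and 2 values per gene are a weak basis. For MCL1 the nearest was SESN1 at a distance of 0.04, and for BID it was PPM1D at 0.03. CDKN1A was nearest to SESN2 at 0.17 and BCL2L11 to CCNA2 at 0.09. BCL2 was nearest to XIAP at 0.20. The counting interval of the MCL1 log2 ratio at 8 h alone runs from 0.26 to 1.22, which is wider than any of these distances. Only listed genes could be nearest, so a neighbour from the pathway was fixed in advance.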

How the data were processed

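RNA-seq of THP-1 cells comprised an untreated library and libraries after 8 h and 24 h of GSK-LSD1. Reads were mapped to hg38 by the authors through Seq2science, and the deposited values are raw counts per feature, named by protein accession or Ensembl transcript identifier. fastp and STAR are named in the submitters' processing notes. The tool and annotation used for counting, its strand setting and its treatment of reads shared by features are not given in the sources used here. Samples were grouped by their labels.

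Library sizes were scaled by TMM (edgeR 4.0.16, R 4.3.3) over features reaching 10 counts in a library, with factors of 1.04, 0.977 and 0.984. Ratios between libraries used no prior count and have exact (Clopper-Pearson) intervals conditional on the summed count. No ratio is given where both counts were 3 or fewer. The 2-fold threshold was applied to log2 CPM with a prior count of 2. These steps ran in Python 3.11.15 with scipy 1.17.1 and statsmodels 0.14.6, and were tested on simulated data. Gene positions and overlaps are from GENCODE v44. The genes and lists were chosen with earlier results of these data known. All 9 genes are named and, of each pathway list, the genes past 2-fold between any pair of libraries, filled up to 8 by the largest fold changes at 24 h. VDAC1, BBC3, CDK4 and the ratios of gene pairs were added after their values were seen. Alternatives were DESeq2 (1.42.0) size factors, total counts, other prior counts, filters and thresholds, and adding transcript features. One marker of another cell type is not reported here.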

Additional observations from a re-analysis of the deposited data

How the results depend on the processing

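The log2 ratios of the 6 measured genes stayed within their counting intervals in all 51 alternative values (DESeq2 size factors, total counts, added transcript features). The sign turned once, for BAX at 24 h versus 8 h with transcript features (0.03, -1.06 to 1.14). With total counts, the interval of BCL2L11 at 24 h versus 0 h lay below no change (-0.24, -0.44 to -0.04). Their medians stayed within the quartiles of the 6 values in 18 alternatives, but ranged from 0 with no filter to 0.34 with at least 50 counts at 8 h (0.13 with total counts) and from -0.0061 with total counts to 0.30 with at least 50 counts at 24 h.

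No measured gene was past 2-fold under any scaling, prior count or filter. A 1.5-fold threshold gave 1 higher at 8 h versus 0 h. Intervals wholly past no change gave 2 higher and 1 lower at 8 h, 1 lower at 24 h, and 1 lower at 24 h versus 8 h. For the pathway genes the numbers past 2-fold rest on few genes. Higher at 8 h versus 0 h they were 1, but 2 with a prior count of 0.5 or no filter, 0 with at least 50 counts and 4 past 1.5-fold. Lower at 8 h they were 2, but 3 with total counts, 1 with at least 50 counts and 5 past 1.5-fold. Higher at 24 h versus 0 h they were 1, but 0 with total counts, a prior count of 5 or at least 50 counts, 2 with a prior count of 0.5 or no filter, and 6 past 1.5-fold. Lower at 24 h they were 3, but 4 with no filter and 6 past 1.5-fold. At 24 h versus 8 h they were 0 higher, but 2 with no filter or past 1.5-fold, and 1 lower, but 0 with a prior count of 5 or at least 50 counts and 2 with no filter. Apart from fewer or more genes tested, the cause was not tested. The prosurvival share without BCL2 was 10.4%, 14.8% and 14.3% in place of 71.3%, 66.5% and 70.2%.

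No paired analysis was possible because each time point has 1 library. Leaving out a library was not run. At this depth BCL2L1, BCL2A1 and BAK1 give no fold change.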
